A study of Mus musculus with 6 samples.

Results

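The genes described here encode the proteins of the mitochondrial ribosome, taken as every symbol beginning with Mrpl (named for the large subunit) or Mrps (named for the small subunit) followed by a digit. There were 78 such members among the 32452 gene symbols of the deposited tables, 49 of them Mrpl and 29 Mrps, and they were followed by library, cell cycle phase, zone and cluster in single-cell RNA sequencing of germinal centre (GC) B cells. All cells were sorted from the spleens of mice given NP-haptenated antigen in alum adjuvant. The Day7 group held 2 libraries of wild-type mice, sorted as B220+ CD38- GL7hi cells at day 7. The Day14 group held 2 libraries of wild-type mice, sorted as B220+ CD95hi GL7hi IgD- cells at day 14. The other 2 libraries, also from day 14 and sorted through the Day14 gate, came from irradiated hosts that had received wild-type bone marrow. The control host was Il4ra+/+, and the host labelled KO was Ccl19Cre/+ Il4raf/f, in which the Cre recombinase is driven from the Ccl19 gene of stromal cells. The sequenced B cells of both chimaeras stem from the wild-type marrow, apart from any host B cells that survived, and Il4ra in them does not check the host genotype. The labels do not say that samples of a group came from separate animals, so p-values measure the spread between these libraries.

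Mitochondrial ribosomes translate the messenger RNAs of the mitochondrial genome, all of which encode subunits of the respiratory chain and the ATP synthase. Their ribosomal RNAs are made inside the organelle, whereas every protein of the mitochondrial ribosome is encoded in the nucleus, translated in the cytosol and imported. GC B cells divide in the dark zone (DZ) and compete for antigen and T cell help in the light zone (LZ), where help induces Myc. Several members have known further roles or family ties. Mrps18a, Mrps18b and Mrps18c are homologues of a single bacterial ribosomal protein. Mrpl12 forms part of the ribosome's stalk and also binds the mitochondrial RNA polymerase. Mrps36 keeps a ribosomal symbol but is now regarded as a subunit of the α-ketoglutarate dehydrogenase complex.

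The promoters of these genes are shown because they carry the phase and zone results below: the homologues Mrps18a, Mrps18b and Mrps18c, which moved in different directions, and Mrpl51 and Mrpl18, which were among the members most raised in dividing cells. The sequences are from RefSeq (GRCm38.p6), 5′ to 3′ on the strand of the gene, from 250 bases before to 50 bases after its annotated start. Capitals mark CCGGAA, or its reverse complement TTCCGG, the core letters bound by ETS-family factors such as GABPA. The windows are chr17:46110754-46111053 on the plus strand for Mrps18a, chr17:35916391-35916690 on the minus strand for Mrps18b, chr5:100798509-100798808 on the plus strand for Mrps18c, chr6:125191950-125192249 on the plus strand for Mrpl51 and chr17:12916042-12916341 on the minus strand for Mrpl18.
Mrps18a: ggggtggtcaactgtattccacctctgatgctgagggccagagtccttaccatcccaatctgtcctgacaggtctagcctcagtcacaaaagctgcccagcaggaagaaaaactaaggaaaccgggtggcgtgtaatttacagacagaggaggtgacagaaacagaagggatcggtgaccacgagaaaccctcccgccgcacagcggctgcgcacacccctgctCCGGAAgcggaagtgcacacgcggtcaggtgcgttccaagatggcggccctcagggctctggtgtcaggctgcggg
Mrps18b: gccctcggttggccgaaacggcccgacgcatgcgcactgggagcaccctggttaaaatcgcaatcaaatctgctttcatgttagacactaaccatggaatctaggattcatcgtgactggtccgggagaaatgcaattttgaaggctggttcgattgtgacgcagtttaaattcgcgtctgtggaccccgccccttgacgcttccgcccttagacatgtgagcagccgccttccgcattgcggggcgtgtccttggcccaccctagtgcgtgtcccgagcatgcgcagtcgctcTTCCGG
Mrps18c: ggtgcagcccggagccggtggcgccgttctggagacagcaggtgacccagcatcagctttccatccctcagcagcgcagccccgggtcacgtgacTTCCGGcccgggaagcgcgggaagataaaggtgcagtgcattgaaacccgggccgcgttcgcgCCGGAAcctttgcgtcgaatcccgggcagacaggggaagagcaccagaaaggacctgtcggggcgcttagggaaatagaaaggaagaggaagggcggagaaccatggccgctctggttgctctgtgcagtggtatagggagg
Mrpl51: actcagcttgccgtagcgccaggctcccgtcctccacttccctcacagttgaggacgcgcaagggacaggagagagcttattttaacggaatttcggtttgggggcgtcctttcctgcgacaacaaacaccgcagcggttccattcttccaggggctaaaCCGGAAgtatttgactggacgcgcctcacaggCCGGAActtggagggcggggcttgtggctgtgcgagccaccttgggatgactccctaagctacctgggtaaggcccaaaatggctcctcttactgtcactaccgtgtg
Mrpl18: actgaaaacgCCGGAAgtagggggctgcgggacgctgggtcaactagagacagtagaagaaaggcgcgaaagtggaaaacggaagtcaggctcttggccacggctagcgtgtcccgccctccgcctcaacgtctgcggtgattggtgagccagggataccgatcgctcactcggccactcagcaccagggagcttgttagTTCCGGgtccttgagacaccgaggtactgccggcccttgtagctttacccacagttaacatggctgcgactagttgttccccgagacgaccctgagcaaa

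Promoters were found for 69 of the 78 members, 75 windows in all. CCGGAA was present on either strand in 57.3% of the members' windows and in 14.9% of all 32851 RefSeq windows of that length. The NRF1 motif, GCGCA and GCGC with any base between, was in 17.3% of the members' windows against 4.60% of all windows. AANATGGCG, bound by YY1, was in 14.7% against 2.38%. The E-box CACGTG, bound by MYC with MAX, was in 9.33% against 7.15%. Windows of a gene with several annotated starts were counted apart, and the members' E-box matches include overlapping windows of Mrpl2. Of the elements known from cell cycle genes, CCAAT was in 40.0% of the members' windows against 37.4% of all, TTTGAA was in 17.3% against 17.9%, and TTCGAA was in 0 against 1.56%. Each motif was searched on both strands, none is part of another, and a match describes letters only. Besides CCGGAA, the Mrps18a window held CCAAT and AANATGGCG, the Mrpl18 window CCAAT, the Mrps18b window TTTGAA and the Mrps18c window CACGTG.

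The members were measured in every library. Libraries held 1012 to 10648 cells and 20339933 to 62202828 unique molecular identifiers (UMIs, which count molecules), with a median of 17277.5 and 18233.5 UMIs per cell in Day7, 3399 and 3178.5 in Day14, and 6676 and 7185.5 in the control and KO chimaeras. Markers of B cells were detected in all libraries (8 of 8), at a summed 5244 to 6377 CPM (counts scaled to a library total of 1000000), against 26.7 to 110.7 for the stromal, 11.7 to 57.1 for the myeloid, 56.4 to 126.5 for the T cell and 59.7 to 641.8 for the erythroid lists. For the sums of marker lists, the library total was taken over all symbols of its table, immunoglobulin genes included. For the levels of genes and of the other lists it was taken over the 14547 symbols listed in all 3 tables, immunoglobulin genes left out. Of the members, 77 were listed in all 3 tables under their own symbol. Mrpl58, which releases stalled peptides, stood under its older symbol Ict1 in the Day7 table and was kept out of the fits. It was at 75.4 and 73.6 CPM in Day7, 88.8 and 92.7 in Day14, 101.3 in the control and 100.8 in the KO chimaera. Each UMI marks the 5′ end of a single molecule, so levels were not divided by transcript length.

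Levels of the 77 members spanned more than an order of magnitude. Mrpl52 had the highest mean over the 6 libraries, 307.6 CPM, with 278.9 CPM in the lowest and 347.0 in the highest library. Mrpl18 followed at a mean of 264.9 CPM, Mrpl54 at 244.2, Mrps21 at 232.5 and Mrpl12 at 203.3, and their ranges over libraries overlapped. The lowest were Mrpl53 at a mean of 8.22 CPM, Mrps6 at 15.0 and Mrps2 at 16.6. Mrpl53 differed more between the Day7 libraries (18.7 and 8.15 CPM) than between Day7 and Day14 (8.67 and 8.83 CPM), and it shares exons of its strand with another annotated gene. Mrps6 shares exons in the same way with Slc5a3, Mrps24 with Urgcp and Mrps34 with Nme3, so the split of their reads is uncertain. Mrps18c, Mrpl33, Mrpl51 and Mrpl3 also share exons of their strand, with genes not annotated as protein-coding. Summed over the 77 members, transcripts took 0.708% and 0.756% of the UMIs in Day7, 0.550% and 0.556% in Day14, 0.782% in the control and 0.809% in the KO chimaera. The Day14 libraries were thus the lowest of the 6, and the chimaeras of the same day and gate the highest.

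**Figure D1:**
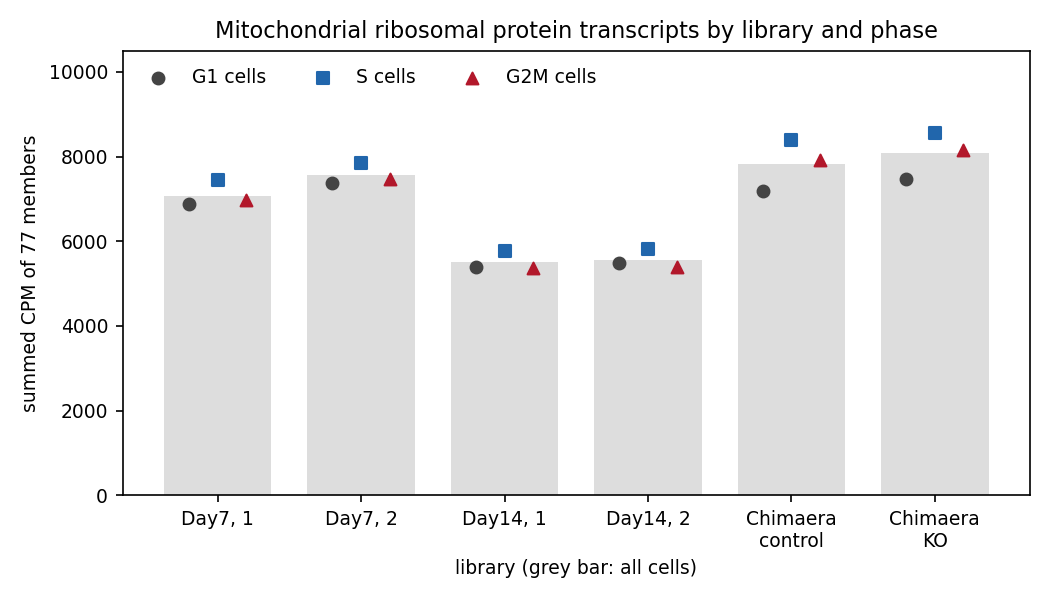
Summed CPM of the 77 members (y axis) in each library (x axis), as a grey bar for all cells and as points for the cells of each deposited phase. The Day14 bars stand at 5502 and 5556 CPM, below the Day7 bars at 7078 and 7556 and the chimaeras at 7817 and 8088, and the S point is the highest of its library in all 6.

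Between day 7 and day 14 in wild-type mice, transcripts of the mitochondrial ribosome fell as a share of UMIs. Of 77 members tested, 66 were lower in Day14 and 1 was higher by edgeR's quasi-likelihood test (adjusted p under 0.05), where 33.0% of all 11994 genes were lower and 34.9% higher. The members' median log2 change was -0.66, against 0.04 for all genes. By symbol, 42 of 48 Mrpl and 24 of 29 Mrps members were lower, though a symbol does not always give the subunit. Scaling by library totals alone moved the median of all genes to 0.22 and the members' median to -0.47, with 55 lower and 4 higher, where 25.7% of genes were lower and 42.5% higher. Markers of cell states also moved between the days: the S phase list (10 genes) summed to 2293 and 2334 CPM in Day7 and 1431 and 1466 in Day14, and the plasma cell list (10 genes) to 3698 and 3689 against 849 and 822. The 7 stromal markers listed summed to 36.0 and 26.7 CPM in Day7 and 110.7 and 94.5 in Day14, with Pdpn at 0 in all 4 libraries. Among G1 cells alone, 63 members were lower in Day14 and 0 higher by edgeR, with 63 of the 77 at an unadjusted p under 0.05, where 32.1% of genes were lower and 33.7% higher. The part of the other lists in the members' change was not tested.

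Mrpl44, a large-subunit protein with a ribonuclease III-like fold, was at 41.9 and 44.9 CPM in Day7 and 15.3 and 14.8 CPM in Day14, a log2 change of -1.72 (SE 0.0821, adjusted p = 2.76e-05, edgeR). Mrps14, a protein of the small subunit's head, was at 177.6 and 182.6 CPM in Day7 and 64.7 and 62.6 CPM in Day14, a log2 change of -1.69 (SE 0.0651). Mrpl34 was at 93.7 and 98.4 CPM in Day7 and 41.6 and 40.5 CPM in Day14. In all these genes the libraries of a day lay close together and the days did not overlap. Mrps2 and Mrpl42 both changed by -1.39 on the log2 scale. Mrps36, the dehydrogenase subunit, changed by -1.31, and Mrpl36, a small zinc-binding protein of the large subunit, by -1.13. Mrps26, a small-subunit protein without a bacterial counterpart, was the single member called higher, at 101.2 and 97.7 CPM in Day7 and 127.6 and 132.8 CPM in Day14 (log2 0.20, SE 0.0576, adjusted p = 0.0207). It was not called when either Day14 library was left out. Mrpl12 was at 154.3 and 179.4 CPM in Day7 and 214.7 and 224.1 CPM in Day14, but its log2 difference of 0.21 did not pass (adjusted p = 0.0968). That value turned on the Day7 libraries, being 0.0327 without Day7 sample 1 and 0.3451, then called higher, without Day7 sample 2. Of the Mrps18 homologues, Mrps18c changed by -1.30 (SE 0.0623) and Mrps18b by -0.71 (SE 0.0799), while Mrps18a, at 133.0 and 147.1 CPM against 139.7 and 141.9 CPM, overlapped between the days (log2 -0.18, adjusted p = 0.0828). Mrps18a was at -0.3209, then called lower, without Day7 sample 1 and at -0.0813 without Day7 sample 2.

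**Figure D2:**
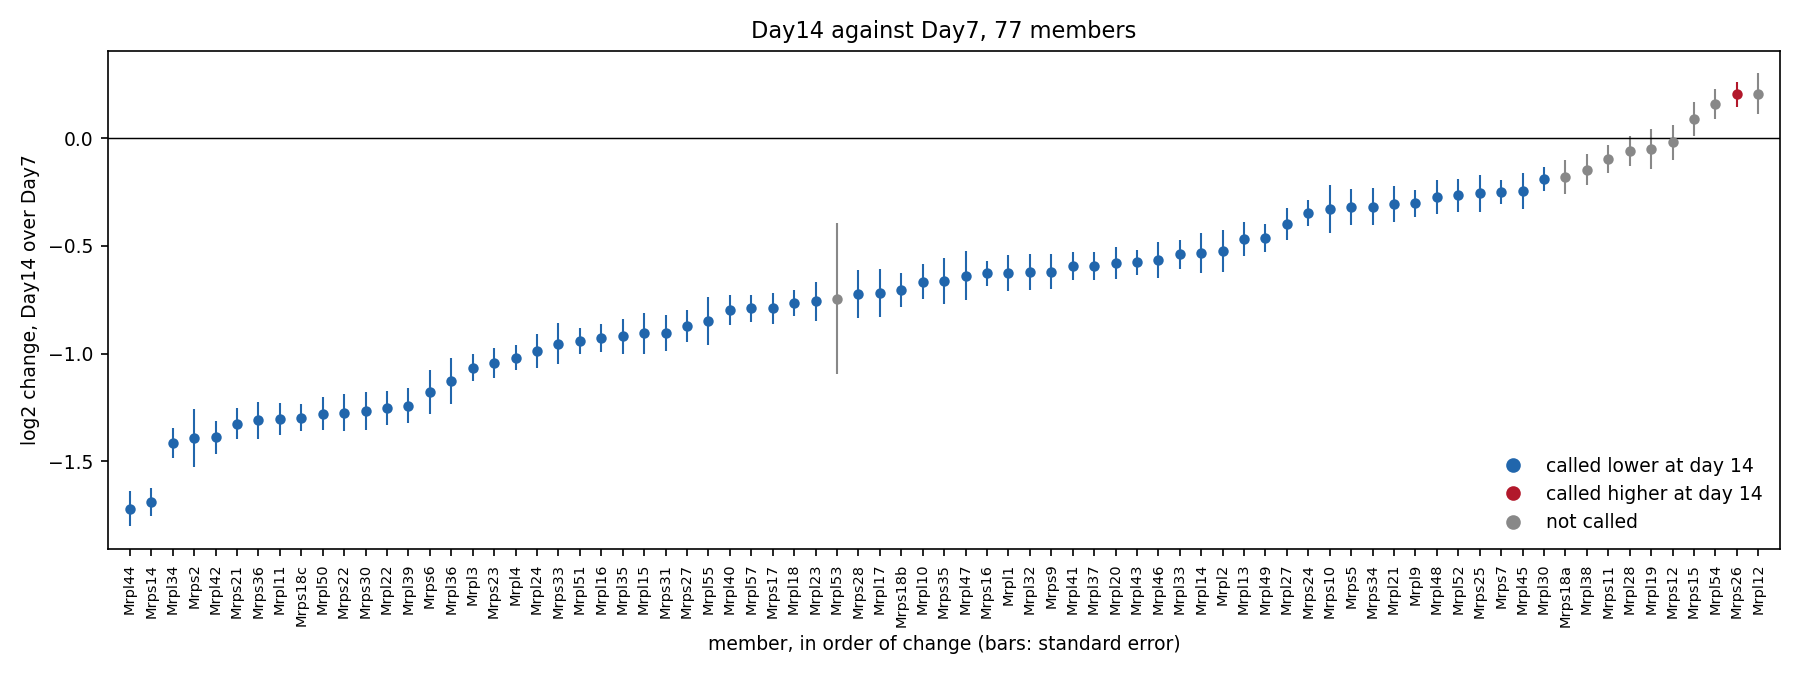
Log2 change of each of the 77 members, Day14 over Day7, in order of size, with standard errors from the edgeR fit. Blue marks the 66 members called lower and red Mrps26, the single member called higher; the changes run from -1.72 for Mrpl44 to 0.21 for Mrpl12.

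Day, sort gate, sequencing depth and the table a library was deposited in cannot be told apart in this comparison. The chimaeras share day and gate with Day14 and differ from it in their irradiated hosts, their depth and their table. Both chimaera libraries were above both Day14 libraries for 69 of the 76 members that reached 20 CPM in a library, where 35.7% of 6500 genes were. Both Day7 libraries were above both Day14 libraries for 60 of 76 members (41.1% of genes), and both chimaera libraries above both Day7 libraries for 33 of 76 (20.1% of genes). The median log2 ratio of the chimaera mean over the Day14 mean was 0.57 over the 77 members, and that of the Day7 mean over the Day14 mean was 0.47. Mrps14, for example, stood at 170.4 CPM in the control and 177.4 in the KO chimaera, with the Day7 rather than the Day14 libraries. Exceptions included Mrpl53, at 2.83 CPM in the control and 2.21 in the KO chimaera, and Mrps6, at 7.33 and 7.65 CPM. Both genes were lower in the chimaeras than in all other libraries, and both share exons of their strand with another gene. The mitochondrially encoded mRNAs, which these ribosomes translate, ran the other way: 13 of them summed to 7.61% and 7.87% of UMIs in Day14, 2.73% and 2.68% in Day7, and 3.18% and 3.10% in the control and KO chimaeras. The part of this difference in the members' CPM was not tested.

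Other genes of mitochondrial protein synthesis changed in both directions between the days. Among 16 translation factors, 7 were lower in Day14, such as the elongation factor gene Tsfm (log2 -1.34), and 3 were higher, such as Lrpprc (0.48), which stabilises mitochondrial mRNAs. Among 26 genes listed for assembly of the mitochondrial ribosome, 14 were lower, including the ribosomal RNA methyltransferases Mettl15 (-1.28) and Tfb1m (-1.11), and 5 were higher, including Mrm1 (0.64); Mrto4 in this list acts on the cytosolic ribosome. Of 17 mitochondrial aminoacyl tRNA synthetases, 4 were lower and 7 higher, with Lars2 at 1.79. Lars2 was also among the leading genes of the unnamed Day14 cluster 3, whose cells had a median of 1221 UMIs. The part of that cluster in the Lars2 change was not tested. Of 5 ribosomal proteins that carry other symbols, 3 were lower, Chchd1 most (-0.85), and Ptcd3 was higher (0.49). Of 77 nuclear genes of the respiratory chain, 63 were lower and 4 higher, with a median of -0.74. Of 83 cytosolic ribosomal protein genes, 53 were lower and 7 higher, with a median of -0.41. Of 13 mitochondrial mRNAs, 9 were higher, with a median of 1.05.

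Cells called in S phase gave a larger share of their UMIs to these transcripts than G1 cells of the same library. Over 6 libraries, with the library as a block, 44 of 77 members were higher in S and 5 lower (edgeR, adjusted p under 0.05), where 29.1% of 11430 genes were higher and 34.2% lower. The members' median log2 difference was 0.15, against -0.04 for all genes. The summed level rose from 6875 CPM in G1 to 7441 in S in Day7 sample 1, and from 7372 to 7856 in Day7 sample 2. It went from 5395 to 5780 and from 5481 to 5809 CPM in the Day14 samples, from 7183 to 8403 in the control and from 7476 to 8553 in the KO chimaera. Of the 44 members called higher, 30 were higher in all 6 libraries, and the least uniform in 3.

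Mrpl14, which lies at the interface between the subunits, showed the largest S difference. It was at 61.4 and 74.3 CPM in G1 and 104.7 and 114.7 CPM in S in Day7, and at 55.5 and 54.0 CPM in G1 and 86.2 and 88.8 CPM in S in Day14. In the control it was at 85.1 CPM in G1 and 126.7 in S, and in the KO chimaera at 89.0 and 133.7. S exceeded G1 in 6 of 6 libraries, with a log2 difference of 0.69 (SE 0.0396, adjusted p = 2.79e-11, edgeR). Mrpl18, a protein of the large subunit's central protuberance, differed by 0.68 (SE 0.0329), Mrpl28 by 0.66, Mrpl49 by 0.63 and Mrpl13 by 0.57, each in 6 of 6 libraries. Mrpl12 differed by 0.55 and Mrps18a by 0.39, also in 6 of 6. Mrpl43 was the member lowest in S relative to G1, at -0.21 (SE 0.0368), followed by Mrpl9 at -0.18, Mrpl30 at -0.16, Mrps16 at -0.11 and Mrpl38 at -0.10. Mrpl38 turned to 0.0802 among LZ cells alone, which was not called, and lost its call without any single Day7 or Day14 library (-0.0901 to -0.0793). Mrps16 lost its call without Day14 sample 2 (-0.0932), the control (-0.0857) or the KO chimaera (-0.088). Mrpl36 belongs to the S phase gene list distributed with Seurat, from which phase calls of this kind are commonly made, yet it did not differ between S and G1 beyond its error (log2 -0.00, SE 0.0438). How the deposited phases were called is not given in the sources used here.

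In cells called G2M, the members separated. Of 77, 31 were higher than in G1 and 15 lower, where 28.6% of all genes were higher and 31.6% lower, with a median of 0.06 for the members and -0.03 for all genes. Scaling by library totals alone gave 22 higher and 15 lower and a median of -0.00, where 22.7% of genes were higher and 39.1% lower. This comparison shares its G1 cells with the S comparison. Mrps18a, which sits in the large subunit despite its symbol, was at 106.7 and 114.1 CPM in G1 and 174.5 and 185.8 CPM in G2M in Day7. It was at 101.0 and 98.9 CPM in G1 and 189.4 and 192.6 CPM in G2M in Day14. In the control it was at 110.0 and 228.4 CPM, and in the KO chimaera at 124.1 and 226.2 CPM. The lowest G2M value exceeded the highest G1 value over all 6 libraries, and the log2 difference was 0.94 (SE 0.0435, adjusted p = 1.07e-12, edgeR), a 1.91-fold change.

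Its homologue Mrps18b, a small-subunit protein, moved the other way. It was at 73.5 and 73.6 CPM in G1 and 43.3 and 56.3 CPM in G2M in Day7, and at 48.7 and 51.4 CPM in G1 and 36.2 and 33.1 CPM in G2M in Day14. The control went from 66.6 to 49.4 CPM and the KO chimaera from 67.6 to 55.9 CPM. G2M was below G1 in 6 of 6 libraries, by a log2 of -0.40 (SE 0.0470, adjusted p = 5.35e-07). Mrps18c, the homologue that takes the place of the bacterial protein in the small subunit, differed by only 0.18 (SE 0.0422), in 5 of 6 libraries. Mrpl51 was at 105.9 and 106.8 CPM in G1 and 171.6 and 162.9 CPM in G2M in Day7, and at 62.9 and 63.7 against 94.1 and 96.2 CPM in Day14. Its log2 difference was 0.75 (SE 0.0344), and the chimaeras were at 102.9 against 181.0 and 103.8 against 176.6 CPM. Mrpl28 followed at 0.59, Mrpl18 at 0.49 and Mrpl27, a protein near the peptidyl transferase centre, at 0.43, each in 6 of 6 libraries. On the lower side, Mrpl38 differed by -0.37, Mrpl19 by -0.28, Mrpl24 by -0.23, Mrps2 by -0.19 and Mrpl36 by -0.14. Mrps2 was not called without Day7 sample 2 (-0.198), Day14 sample 1 (-0.146), the control (-0.1574) or the KO chimaera (-0.1712).

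**Figure D3:**
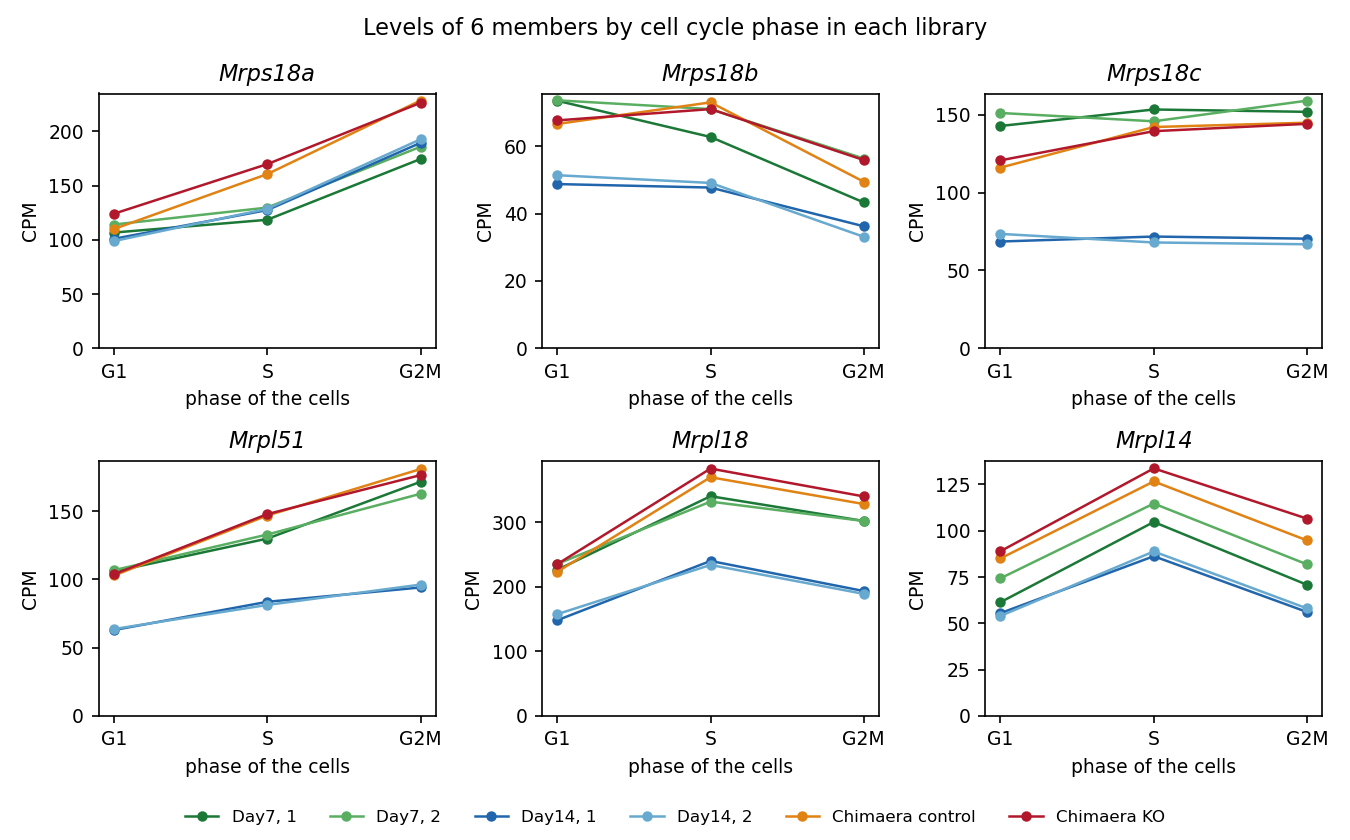
CPM of 6 members (y axis, from 0) in the G1, S and G2M cells of each library, with a line per library. Mrps18a and Mrpl51 climb from G1 through S to G2M in all 6 libraries, Mrpl18 and Mrpl14 peak in S in all 6, and Mrps18b is lowest in G2M in all 6.

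Depth moved with phase: the median UMIs per G1 cell were 12708 and 13875 in Day7, 2699 and 2461 in Day14, and 5175.5 and 5121.5 in the control and KO chimaeras. In S cells they were 21047 and 20440, 4054.5 and 3786.5, and 7999.5 and 8682. For a comparison at equal depth, cells were thinned to 1000 UMIs, which left out 373 and 565 shallower cells in Day14, 45 in the control, 18 in the KO chimaera and 0 in Day7. Of 77 members, 24 were then higher and 6 lower in S, where 20.5% of genes were higher and 24.6% lower. In G2M, 14 were higher and 13 lower, where 19.5% of genes were higher and 24.0% lower, so the members' share of higher calls in G2M was no longer above that of all genes. The thinned counts also hold fewer UMIs to test with. The counts of other lists that follow are from the fits without thinning. There, 29.1% of all genes were higher and 34.2% lower in S, and 28.6% higher and 31.6% lower in G2M. Of other genes of mitochondrial protein synthesis, 4 of the 5 ribosomal proteins with other symbols were higher in S, led by Dap3 (0.35), and 4 in G2M. Of the 26 assembly genes, 6 were higher and 8 lower in S, Tfb1m standing highest at 1.03, and 3 were higher and 10 lower in G2M. Translation factors gave 7 higher and 2 lower of 16 in S, and 5 and 3 in G2M. The nuclear respiratory chain gave 52 higher and 3 lower of 77 in S, and 47 and 6 in G2M. Cytosolic ribosomal protein genes gave 27 higher and 17 lower of 83 in S, and 6 higher and 45 lower in G2M.

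Whether these differences changed between the days was tested over the Day7 and Day14 libraries with an interaction term. The S over G1 log2 difference was shifted up in Day14 for 1 of 77 members and down for 8, where 2.17% of genes were shifted up and 4.28% down. The member shifted up was Mrpl54, which went from -0.20 in Day7 to -0.01 in Day14. The G2M over G1 difference was shifted up for 2 members, Mrps18a and Mrpl12, and down for 4, shares near those of all genes (2.3% up and 4.87% down). The DZ over LZ difference among G1 cells changed for 0 members in edgeR, with 7 members at an unadjusted p under 0.05, where 1.7% of genes were shifted up in Day14 and 0.808% down.

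Some members share a start region with a gene that is itself cycle-dependent. By the GENCODE annotation of GRCm38, 23 of the 78 members (29.5%) had a protein-coding neighbour starting on the other strand within 1000 bases upstream or with an overlap under 300 bases, against 14.9% of the 10675 protein-coding genes tested. Mrpl51 (chr6:125191801-125196269, plus strand) lies 100 bases from the start of Ncapd2, a condensin subunit gene whose G2M over G1 log2 difference was 2.39. The promoter window printed above for Mrpl51 follows its RefSeq start and lies wholly downstream of this GENCODE start. Mrpl27 (chr11:94653767-94660089, plus strand) overlaps the start of Eme1, an endonuclease subunit gene at 2.62, and Mrpl57 (chr14:57826234-57829296, plus strand) lies 49 bases from Ska3, a kinetochore gene at 2.79. Mrps18b (chr17:35910379-35916389, minus strand) lies 45 bases from Ppp1r10, a phosphatase regulator gene at 0.41, opposite in sign to its own difference. Mrps18a (chr17:46110986-46128910, plus strand), the member most raised in G2M, had no such neighbour. Other neighbours were lower in G2M, such as Pnpla7 beside Mrpl41 (-0.98), Klc4 beside Mrpl2 (-0.90) and Wdfy1 beside Mrpl44 (-0.73). Helq, 29 bases from Mrps18c, was at 0.29 in G2M over G1 and at 0.83 in DZ over LZ among G1 cells. Whether members and their neighbours changed together was not tested. Where genes overlap on opposite strands, as do Mrpl27 and Eme1, Mrpl18 and Tcp1, Mrpl13 and Mtbp, or Mrpl14 and Tmem63b, the sources used here do not say whether strand was used in counting.

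Among G1 cells, DZ cells gave a larger share of their UMIs to these transcripts than LZ cells. With the cells limited to those called G1, 24 of 77 members were higher in DZ and 5 lower (edgeR, adjusted p under 0.05), where 19.4% of 10350 genes were higher and 20.6% lower. The median was 0.07 for the members and 0.00 for all genes. In the same fit the neighbour genes Ncapd2 (log2 1.23) and Eme1 (1.06), raised in G2M, were called higher in DZ. Ska3 (0.30), also raised in G2M, was not called. Whether cells called G1 differed in cycle state between the zones was not tested. Summed CPM were 7297 in DZ and 6737 in LZ for Day7 sample 1, 7675 and 7265 for Day7 sample 2, 5720 and 5257 for Day14 sample 1, and 5837 and 5330 for Day14 sample 2. They were 7644 and 7031 in the control and 8065 and 7251 in the KO chimaera, so DZ was above LZ in 6 of 6 libraries. Mrps18c was at 171.4 and 179.9 CPM in DZ and 133.4 and 141.0 CPM in LZ in Day7, and at 87.4 and 92.0 against 60.0 and 65.1 CPM in Day14. The control gave 144.4 against 104.3 CPM and the KO chimaera 158.3 against 103.8 CPM. DZ was above LZ in 6 of 6 libraries, by a log2 of 0.45 (SE 0.0482, adjusted p = 9.56e-07). Mrps18a differed by the same 0.45 (SE 0.0459), Mrpl18 by 0.39, Mrpl27 by 0.35 and Mrpl33 by 0.32, each in 6 of 6 libraries.

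The members lower in DZ were Mrps2 at -0.39 (SE 0.0872), Mrpl24 at -0.32, Mrps28 at -0.25, Mrps7 at -0.15 and Mrps34 at -0.14. Mrps2 and Mrps34 were lower in DZ in 6 of 6 libraries. Mrpl24 was not lower in Day7 sample 1, Mrps28 was higher in DZ in Day14 sample 2 (56.1 against 53.5 CPM), and Mrps7 was higher in DZ in the control (164.3 against 163.3 CPM) and the KO chimaera (174.0 against 169.7 CPM). Mrps7 lost its call without either Day7 library (-0.1268 and -0.1363), and Mrps34 without Day7 sample 2 (-0.1045) or the control (-0.1296). Mrps2, a low gene, was at 10.1 and 8.65 CPM in DZ and 13.2 and 10.3 CPM in LZ in Day14. Mrps18b (0.08), Mrpl12 (0.07), Mrps36 (0.08) and Mrpl36 (-0.08) did not pass the test. With a library left out, Mrps18b ran from 0.0487 (without Day7 sample 1) to 0.1309 (without Day7 sample 2), and Mrpl36 from -0.1211 (without Day14 sample 2) to -0.0192 (without the control). The zone result changed with the phase of the cells, a difference that was not itself tested. In S cells, 14 members were higher in DZ and 17 lower, where 18.9% of genes were higher and 17.9% lower, so the members stood near the background. Over all phases, 29 were higher and 15 lower, where 27.5% of genes were higher and 30.1% lower. Mrps18b differed by -0.32 in S cells, against its 0.08 in G1. In summed CPM, LZ cells called G2M were above DZ cells called G2M in all 6 libraries, though only 4 to 102 cells a library were LZ and G2M. Leaving out the clusters named below as MYC-high-like, memory-precursor-like and plasma-like, an alternative chosen after seeing the data, gave 36 higher and 3 lower in G1, where 16.5% of genes were higher and 15.6% lower. Thinning to 1000 UMIs gave 10 higher and 1 lower, where 8.49% of genes were higher and 10.3% lower. In the same G1 comparison, 44 of 76 nuclear respiratory chain genes were higher in DZ and 1 lower, 2 of 83 cytosolic ribosomal protein genes were higher and 3 lower, and 17 of 18 MYC-driven growth genes were lower, Myc itself by -1.78.

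**Figure D4:**
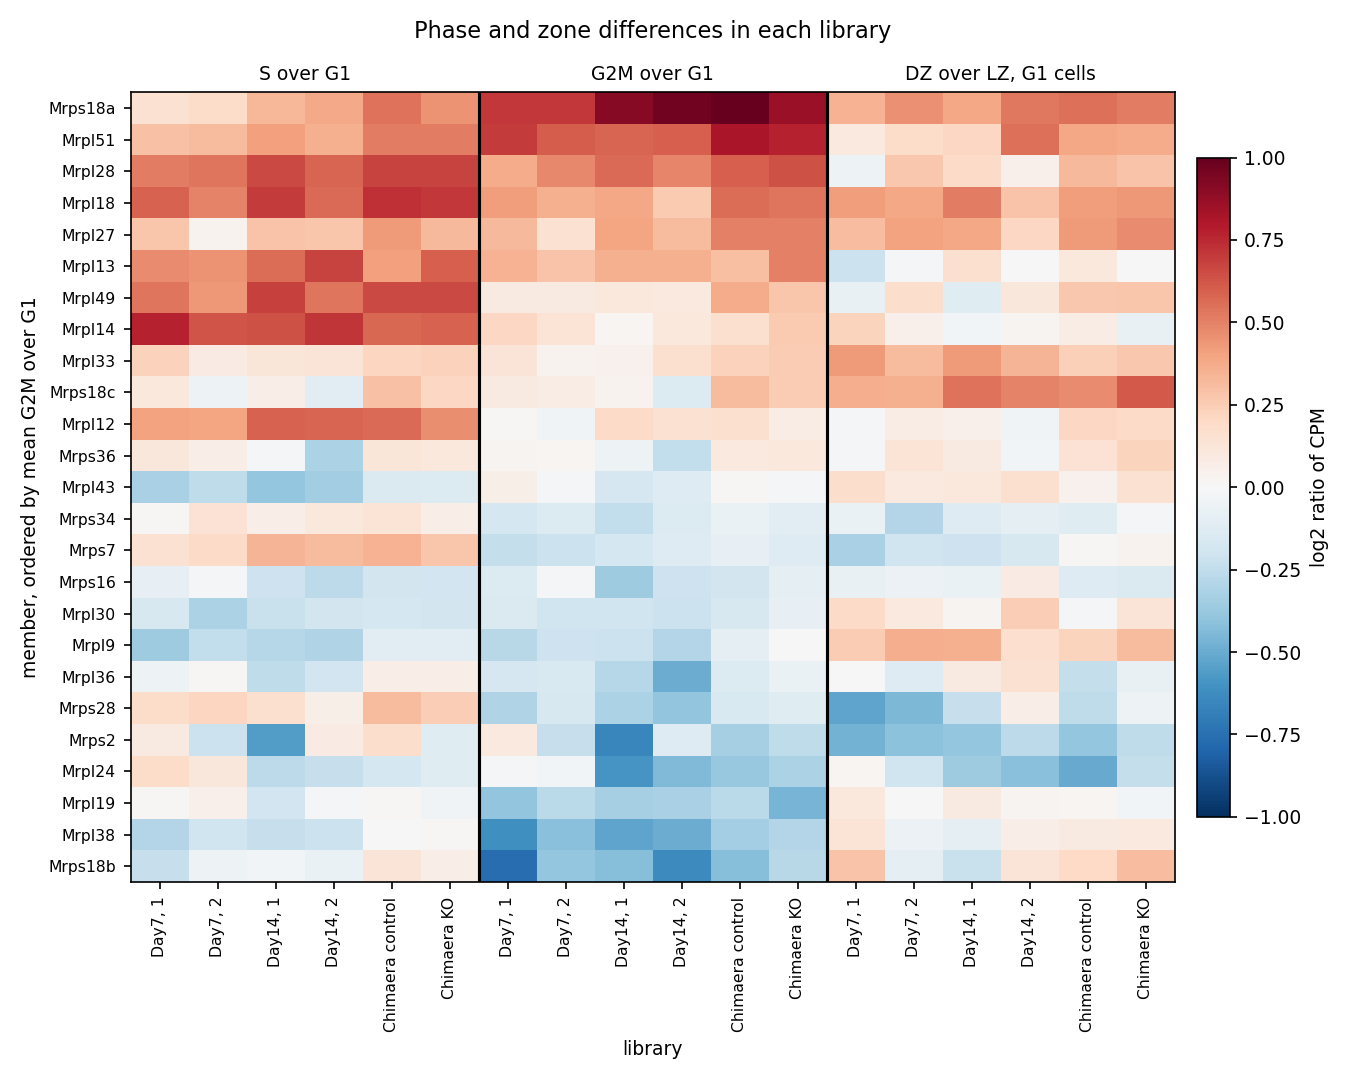
Log2 ratio of CPM in each library (columns) for the members named from the phase and zone comparisons (rows), with S over G1, G2M over G1 and DZ over LZ among G1 cells side by side; the colour scale ends at -1 and 1. Mrps18a is at the top of the G2M columns and Mrps18b at the bottom, and Mrps18c stands out in the DZ columns.

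Among the deposited clusters, those named MYC-high-like, with 14 of 14 markers raised, held the largest share of mitochondrial ribosomal protein transcripts. The clusters were drawn on these same cells and genes, so their levels are described and not tested. A single cluster of each table was MYC-high-like by the marker list, and its summed CPM were 7894 and 8547 in Day7, 6900 and 6762 in Day14, 9666 in the control and 9833 in the KO chimaera. That was the highest cluster of its library in all 6. On the log2 scale it stood 0.289 ± 0.066 (SD, n = 6 libraries) above the other cells of its library. Of 77 members, 53 were above the other cells in all 6 libraries and 4 below in all 6, where 25.4% of 6500 genes were above and 32.6% below. Mrps6 was highest over the other cells, at a mean log2 of 1.07 ± 0.20 (SD), followed by Mrpl12 at 0.91 ± 0.13, Mrps28 at 0.86 ± 0.11, Mrps18b at 0.83 ± 0.13 and Mrps2 at 0.71 ± 0.24. Those below in all 6 were Mrps18c at -0.33 ± 0.16, Mrpl57 at -0.23 ± 0.14, Mrpl43 at -0.14 ± 0.08 and Mrpl33 at -0.05 ± 0.05. Mrps18a was near the other cells, at 0.07 ± 0.12. Mrps18b was thus above, and Mrps18c below, the other cells in each of the 6 libraries.

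Memory-precursor-like clusters, present in Day14 and the chimaeras, lay below the other cells of their library, at summed log2 differences of -0.11 and -0.11 in Day14, -0.25 in the control and -0.23 in the KO chimaera. Of 77 members, 35 were below the other cells in all 4 libraries and 5 above, where 52.5% of genes were below and 14.9% above. The members' median log2 difference was -0.17 and that of all genes -0.20, so members lay below the other cells no more often than genes in general. Mrps18a was lowest there, at a mean log2 of -0.74 ± 0.19 (SD, n = 4), and Mrpl27 (-0.56), Mrpl28 (-0.56) and Mrpl49 (-0.54) followed; Mrps16 (0.50) and Mrpl24 (0.48) were the highest. Plasma-like clusters differed between tables: -0.13 and -0.19 in Day7, -0.57 and -0.60 in Day14 cluster 8, -0.12 and -0.04 in Day14 cluster 9, and 0.03 and 0.00 in the control and KO chimaeras. The lowest levels of all were in the unnamed Day14 cluster 10, at 2498 and 2852 CPM from 26 and 24 cells. Plasma-like Day14 cluster 8 followed at 3725 and 3681 CPM from 105 and 93 cells, and then the unnamed Day14 cluster 3 at 3875 and 3937 CPM. Cells of these clusters also had the fewest UMIs in their libraries, with medians of 1012 and 1208 in cluster 10, 2296 and 2132 in cluster 8, and 1294 and 1162 in cluster 3. Cytosolic ribosomal protein transcripts were lowest in the same clusters. They summed to 59342 and 63414 CPM in cluster 10, 61228 and 77695 in cluster 8, and 128705 and 127454 in cluster 3. In the other Day14 clusters they summed to 186438 to 255429 CPM. MYC-high-like cells had a median of 19091 and 19807 UMIs in Day7, 4755 and 4377.5 in Day14, and 11482 and 12793 in the chimaeras. With cells thinned to 1000 UMIs, the MYC-high-like clusters stood 0.301 above the other cells.

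**Figure D5:**
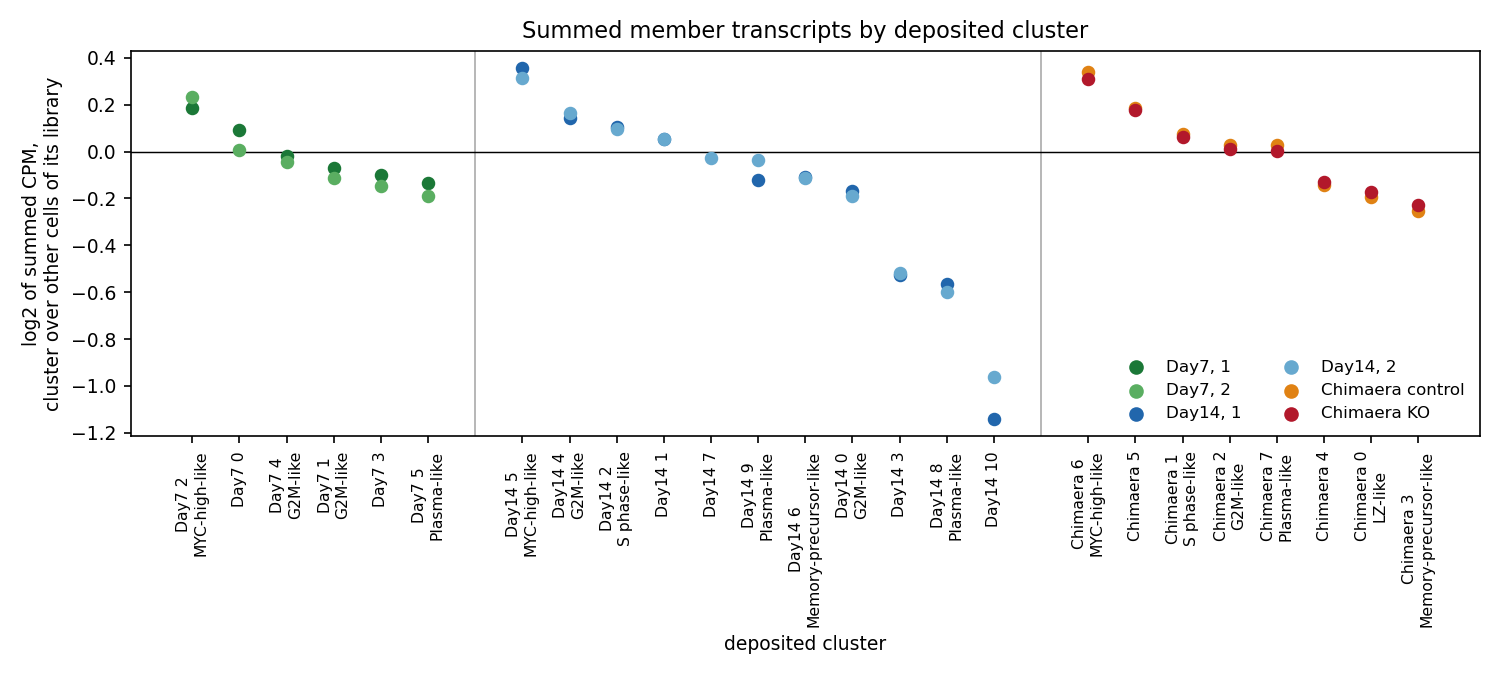
Log2 of the members' summed CPM in each deposited cluster over the other cells of its library (y axis), with a point per library and clusters ordered within each table (x axis). The MYC-high-like clusters are the highest of each table, from 0.185 to 0.356, and Day14 clusters 3, 8 and 10 are the lowest.

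Loss of Il4ra from Ccl19-expressing host cells was compared with the control in 1 library each, so the values have no replicate check. None of the 74 members with at least 20 CPM in either library passed the size rule, an absolute log2 ratio of at least 0.25 with an exact 95% conditional binomial interval excluding 0, in either direction. Among 5056 genes, 2.87% passed higher and 4.71% lower. Intervals cover counting error only. The KO value was above the control for 58 of 74 members, with a median log2 ratio of 0.06, against 0.00 for all 5056 genes. It was also above for 67 of 73 nuclear respiratory chain genes (median 0.07) and 14 of 17 MYC-driven growth genes (0.09). Among cytosolic ribosomal protein genes it was above for 31 of 82 (-0.01). Between the Day14 libraries, which are samples of the same group, 0 of 68 members passed in either direction (0.947% of genes passed higher and 0.947% lower), with a median of 0.02. Mrps22 had the largest ratio, 27.9 CPM in the KO and 24.1 in the control chimaera (log2 0.21, 95% interval 0.11 to 0.32), and Mrpl37 was next at 58.9 and 52.8 CPM (0.16, interval 0.09 to 0.23). Mrps34 had the lowest, at 92.3 and 99.1 CPM (-0.10, interval -0.16 to -0.05). Mrps18a was at 176.5 CPM in the KO and 164.0 in the control (0.11), Mrps18b at 64.5 and 63.2 (0.03), Mrps18c at 135.5 and 133.7 (0.02), Mrpl12 at 228.0 and 219.1 (0.06), Mrpl36 at 101.5 and 95.6 (0.09) and Mrps36 at 142.1 and 130.6 (0.12). The summed level, 8088 CPM in the KO and 7817 in the control, was higher in the KO within G1, S and G2M cells alike.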

How the data were processed

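Counts are UMIs of each gene in each cell as deposited, whole numbers that the authors had not normalised; they were made with Cell Ranger and Seurat on mm10, per the submitters' processing notes, which give no versions. Library, phase, zone and cluster of each cell come from the deposited cell tables, per the file headers; 1 column of receptor barcodes was not used. Libraries shared 1 to 135 cell barcodes a pair, at most 1.54% of the smaller. All deposited cells were kept and no doublet caller was run; an alternative left out the 5% of cells with the most UMIs.

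The members, comparison lists, tests and named genes were chosen with earlier results of these data known. Counts were summed per library, or per library and phase or zone, over symbols listed in the tables compared and without immunoglobulin genes. edgeR 4.0.16 in R 4.3.3 (TMM, filterByExpr, quasi-likelihood test, Benjamini-Hochberg adjustment over all genes tested) gave log2 changes and p-values; the library was a block in phase and zone fits. SEs were taken from the test (log2 change over the root of F). Named genes were the 5 called members with the largest change in each direction of a comparison, the 5 highest and 3 lowest by mean CPM, and Mrpl36, Mrps36, Mrpl12, Mrps18a, Mrps18b and Mrps18c. Rps19bp1 and the Sdhaf genes, which match the list patterns but are not ribosomal proteins or chain subunits, were dropped. Other matches were not sorted by function, and Rpl7l1, Cox7a2l and Atp5s were kept. Clusters were named from marker lists where the class median reached a log2 of 0.5 with 3 markers raised. Alternatives changed scaling, tool (DESeq2 1.42.0), filter, cells, depth (thinning to 1000 UMIs a cell, shallower cells left out) or libraries. On simulated counts, a log2 change of 0.3 was recovered in 13% of changed genes for Day14 against Day7, 85% for S against G1 and 61% for DZ against LZ, and a log2 change of 1 in 91%, 100% and 100%, with 3, 12 and 9 false calls. The KO size rule recovered 100% of changes of 0.35 with 0 false calls under counting error alone. That change was set above the rule's cut of 0.25, and observed ratios below the cut cannot pass. The recovery therefore does not bear on ratios of the members' size, -0.10 to 0.21. Figures were drawn with matplotlib 3.10.9.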

Additional observations from a re-analysis of the deposited data

Results flagged for a closer look

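Among the Day7 and Day14 libraries, the S over G1 difference was itself different between the days for 9 of 77 members by edgeR's interaction test, 1 shifted up and 8 down in Day14, where 2.17% of all genes were shifted up and 4.28% down. Each value below is the Day14 minus Day7 difference on the log2 scale. Mrpl54 was the member shifted up (0.19); its S over G1 log2 ratio was -0.20 in Day7 and -0.01 in Day14. The other 8 were shifted down: Mrpl22 (-0.49), Mrpl44 (-0.43), Mrpl24 (-0.40), Mrpl32 (-0.34), Mrps30 (-0.34), Mrps14 (-0.33), Mrps21 (-0.27) and Mrps36 (-0.27). The S over G1 log2 ratio of Mrpl22 was 0.03 in Day7 and -0.45 in Day14, and Mrpl24 went from 0.15 to -0.25.

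For G2M over G1, 6 members differed between the days, 2 shifted up and 4 down, shares near the 2.3% and 4.87% of all genes. Mrps18a (0.23) and Mrpl12 (0.19) were shifted up in Day14, Mrps18a going from 0.71 to 0.93. Mrpl24 (-0.49), Mrpl41 (-0.30), Mrps14 (-0.29) and Mrps21 (-0.22) were shifted down. Both contrasts share the G1 cells. The tables of the days differ in gate and depth, which cannot be told apart from the day.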

How the results depend on the processing

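The members lower in Day14 numbered 54 to 72 when a library was left out. The 1 member higher became 0 to 4 when a library was left out, 4 without TMM, 0 with DESeq2, 2 without a filter and 0 in G1 cells alone. With the sample number as a replicate block it became 2, with 67 lower; with 2 pairs, whose deviations correlated at 0.176, the numbers were not taken as a pairing. Thinning to 1000 UMIs gave 24 members higher in S and 14 in G2M, and 10 higher and 1 lower in DZ. Leave-one-out counts were 41 to 47 higher and 3 to 4 lower in S, 28 to 33 higher and 10 to 14 lower in G2M, and 19 to 24 higher and 3 to 5 lower in DZ; 3 lower in S came without Day14 sample 2, and 3 lower in DZ without Day7 sample 2. For DZ against LZ, S cells gave 14 higher and 17 lower, all phases 15 lower, no TMM 3 lower, DESeq2 3 lower, and, both chosen after seeing the data, the named clusters left out 3 lower and the Day7 libraries left out 2 lower. Fits with no replicate block moved no count of calls by over 1.5 times (41 higher in S, 27 in G2M, 20 in DZ). In the chimaeras, thinning passed 2 of 74 members higher and 1 lower, where 301 of 5225 genes passed higher and 420 lower. The members' shares were thus not above those of all genes.

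Summed levels moved with the denominator of all UMIs (Day14 5388.9, control 7512.9 and KO 7851.8 CPM), thinning (5063.0, 7504.6 and 7730.5) and without the 5% of cells with the most UMIs (5371.9, 7696.7 and 7984.6), the order of the groups staying as it was.

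Signs reversed as follows; all but the values marked as called missed the threshold. Without TMM, Mrps18a in Day14 was at 0.0071, Mrps18b in S at -0.0203 and Mrps36 in G2M at -0.0029. In LZ cells alone, Mrpl38 in S was at 0.0802 and Mrpl36 at 0.0992; Mrpl36 in S was also at 0.008 with DESeq2, and ran from -0.0099 to 0.0303 with a library left out. Mrps18b in S was at -0.0266 without the 5% of cells with the most UMIs. For DZ against LZ, Mrpl36 was at 0.0192 thinned and 0.12 without the named clusters, Mrpl12 at -0.0089 thinned and -0.12 in S cells (called), Mrps36 at -0.0744 in S cells, and Mrps18b at -0.32 in S cells and -0.31 in all phases (both called). The cause was not tested.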
